A study of Mus musculus with 4 samples.

Results

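The genes described here encode the replication-independent histone variants of the mouse, whose messages carry poly(A) tails. Apart from a second message of H2afx without such a tail, these genes are not confined to S phase in their expression. They were listed by symbol, and no threshold on their values was used: H2afz and H2afv for H2A.Z, H2afx for H2A.X, H2afj for H2A.J, H2afy and H2afy2 for macroH2A, H3f3a and H3f3b for H3.3, and H1f0 and H1fx for the linker histones H1.0 and H1.X. Of the 10 genes listed, 9 were found among the 22138 genes of the table and all 9 passed the filter on low values. H1f0 was not analysed here. The 9 genes could therefore be compared among 12486 tested genes.

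The cells were TT2, a female mouse embryonic stem cell line from a C57BL/6xCBA cross, kept without feeders in medium with serum and the cytokine LIF. One group was transfected with control siRNA (n = 2) and the other with siRNA against Hnrnpk (n = 2). Both received siRNA at 100 nM, then the same siRNA at 50 nM 24 hours later, and RNA was taken about 72 hours after the second dose. Hnrnpk is the gene of hnRNP K, which binds RNA and DNA and which the series title links to SETDB1, the enzyme that methylates histone H3 at lysine 9. All libraries came from 1 cell line, and a control transfection differs from no transfection, which was not measured here. The labels give the RNA as rRNA-depleted in 1 field and as poly(A)-selected in another.

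Most of a cell's core histones are made in S phase from clustered genes whose messages end in a stem-loop in place of a poly(A) tail. Replication-independent variants are put into nucleosomes at any time by their own chaperones: the SRCAP and TIP60-p400 complexes exchange H2A.Z into promoters and enhancers, and HIRA or DAXX-ATRX deposit H3.3. H2A.X carries the serine that DNA damage kinases phosphorylate around double-strand breaks. macroH2A has a large globular domain and is enriched on the inactive X chromosome, and H1 proteins bind the DNA that links nucleosomes.

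H1fx, H2afy2, H2afx, H2afj and H2afz fell after Hnrnpk siRNA, H2afv rose, and the calls for H2afy, H3f3a and H3f3b did not pass the test. A gene was called at an adjusted p under 0.05 in limma, so 5 of the 9 variants were called lower and 1 higher. Over all tested genes 35.0% were called lower and 32.2% higher, 67.2% in all, so the share called among the variants (6 of 9) was like that of the table. The variants' median log2 change was -0.36, beside -0.015 over all tested genes. In 8 of 9 variants the 2 groups of libraries did not overlap, as was the case for 84.7% of all tested genes.

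The paired H2A.Z and H3.3 sequences are shown because each pair makes nearly or exactly the same protein from messages that differ in sequence. H2afz and H2afv differ at 3 of 128 aligned residues (97.7% identity), and their coding sequences share 306 of 387 bases (79.1%). The first 150 coding bases of each follow, 5′ to 3′, from GENCODE M21, with capitals at the 34 bases that differ between the 2 genes.
H2afz: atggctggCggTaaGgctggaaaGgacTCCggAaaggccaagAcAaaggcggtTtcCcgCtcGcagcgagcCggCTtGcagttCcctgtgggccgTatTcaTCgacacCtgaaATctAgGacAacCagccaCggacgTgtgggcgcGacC
H2afv: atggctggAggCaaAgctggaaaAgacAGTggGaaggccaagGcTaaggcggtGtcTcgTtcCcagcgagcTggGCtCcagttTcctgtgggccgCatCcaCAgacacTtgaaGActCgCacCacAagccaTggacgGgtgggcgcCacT

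H3f3a and H3f3b encode the same protein of 136 residues (100% identity), while their coding sequences share 316 of 411 bases (76.9%). Capitals in the first 150 coding bases mark the 32 that differ.
H3f3a: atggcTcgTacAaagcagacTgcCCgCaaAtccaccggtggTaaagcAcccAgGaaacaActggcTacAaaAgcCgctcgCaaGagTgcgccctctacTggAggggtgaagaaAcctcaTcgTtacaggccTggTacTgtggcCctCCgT
H3f3b: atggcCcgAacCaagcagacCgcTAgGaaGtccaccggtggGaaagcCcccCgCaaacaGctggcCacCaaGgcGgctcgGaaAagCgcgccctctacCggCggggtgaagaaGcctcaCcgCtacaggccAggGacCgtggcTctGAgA

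The 2 macroH2A genes were further apart, with 71.4% identity over 360 aligned residues and 40 differences in the first 150 coding bases. H2afx and H2afj matched at 118 of 129 aligned residues, and their coding sequences were 90.2% identical. A read from the coding part of the H2A.Z, H3.3 or macroH2A genes could thus be placed on 1 gene of its pair wherever it covered a few of these bases.

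Hnrnpk itself measured 236 and 226 RPKM with control siRNA, and 68.0 and 70.5 RPKM with its own siRNA, a log2 change of -1.73 (SE 0.0629, adjusted p = 6.59e-08 in limma). RPKM is the number of reads scaled by transcript length and library size, and all changes here are on the log2(RPKM + 0.5) scale. Hnrnpk was thus low in both libraries labelled with its siRNA. Summed RPKM lay between 359659 and 390467 per library, and the depth of the other libraries was 0.882 to 0.982 of that of control library 1, as far as the steps of low values show. Library pairs correlated across genes at 0.997 and 0.999 within the groups and at 0.955 to 0.960 between them.

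Markers of other cell states moved between the groups. All 5 tested trophectoderm markers and all 5 two-cell-like markers were called higher, as were 6 of 7 tested primitive endoderm entries, and summed RPKM went from 30.5 and 36.0 to 68.5 and 73.1 for trophectoderm, from 0.541 and 0.491 to 33.3 and 39.6 for two-cell-like, and from 21.8 and 20.99 to 63.1 and 65.0 for primitive endoderm. In the primitive endoderm list 1 of the 2 entries named Dab2 was at 0 in every library, and no other marker was at 0 throughout. Of the trophectoderm markers too low to test, Elf5 went from 0.105 and 0.109 RPKM in the controls to 0.0608 and 0.0705 RPKM after Hnrnpk siRNA. Cdx2 went the other way, from 0.166 and 0.303 RPKM to 0.731 and 0.749 RPKM. Tfap2c of the trophectoderm list and Tcstv1 and Tcstv3 of the two-cell-like list were not matched by symbol. The pluripotent markers summed to 4035 and 3882 RPKM in the controls and to 4654 and 4976 RPKM after Hnrnpk siRNA, far above the other lists. Of these 9, 2 were called higher (Dppa5a and Nanog) and 3 lower (Sox2, Utf1 and Tdgf1). Dppa5a alone went from 1320 and 1276 RPKM to 2164 and 2451 RPKM, so the higher sums do not mean that most of these markers rose. Both tested fibroblast markers were called lower, and Col1a2, Col3a1, Postn, Dcn and Lum stayed under 0.1 RPKM. In bulk RNA, fewer cells of a type and less RNA per cell cannot be told apart, and the part of these markers in the changes of the histone variants was not tested.

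**Figure D1:**
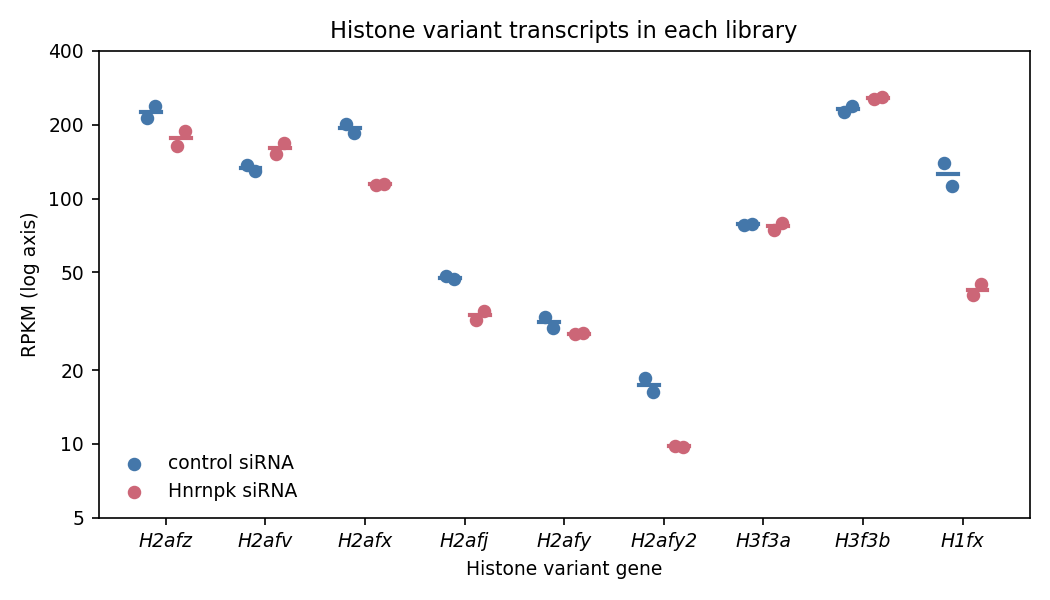
RPKM (log axis) of the 9 histone variant genes in each library: points are the 2 control siRNA (blue) and 2 Hnrnpk siRNA (red) libraries, and bars are group means. H1fx shows the widest gap between the groups, and only in H3f3a do the groups overlap.

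H2A.Z came from 2 genes that moved in opposite directions. H2afz (ENSMUSG00000037894; chr3:137864487-137866922, plus strand, 5 exons in the longest coding transcript, GRCm38) encodes H2A.Z.1, the form most studied in embryonic stem cells. It gave 212 and 239 RPKM in the controls and 164 and 188 RPKM after Hnrnpk siRNA. Both treated libraries lay below both controls, with means of 225 ± 18.8 and 176 ± 16.6 RPKM (SD, n = 2). The log2 change was -0.36 (SE 0.0855, adjusted p = 0.00457 in limma).

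H2afv (ENSMUSG00000041126, chr11:6427229-6444443, minus strand, 5 exons in the longest coding transcript) encodes H2A.Z.2. Its values were 138 and 129 RPKM in the controls and 152 and 168 RPKM after Hnrnpk siRNA. Both treated libraries lay above both controls, with means of 133 ± 5.86 and 160 ± 11.3 RPKM (SD, n = 2). The rise was 0.26 on the log2 scale (SE 0.0720, adjusted p = 0.00892), the only rise called among the variants. The call was lost when Hnrnpk siRNA library 2 was left out (0.19, adjusted p = 0.0642) and with quantile normalization (0.16, adjusted p = 0.0546), and the adjusted p ranged from 0.00132 to 0.0642 over 15 alternatives.

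With the opposite changes, the make-up of the H2A.Z message differed more than its amount. H2afz gave 60.7% and 64.9% of the summed RPKM of both genes in the controls and 51.9% and 52.7% after Hnrnpk siRNA. H2afz was thus clearly the more abundant in both controls and nearly level with H2afv in both treated libraries: its ratio to H2afv was 1.54 and 1.85 in the controls and 1.08 and 1.12 in the treated libraries. The share was lower by 10.5 percentage points (62.8% ± 2.97 against 52.3% ± 0.599, SD, n = 2). The sum of the 2 genes overlapped between the groups, at 350 and 368 RPKM against 317 and 356 RPKM. With 2 libraries against 2, an exact two-sided permutation test cannot give a p below 0.33, so shares are given without a test.

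Of the H2afz transcript, 90.1% had a stretch of at least 100 bases with at least 95% identity in other genes of GENCODE M21, of which Tmcc1 alone was in the table. H2afv shared no such stretch. The handling of such multi-mapping reads was not given in the sources used here, which makes the level of H2afz less certain than that of H2afv.

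The promoters of this pair are printed because the genes moved in opposite directions. Each run is the 250 bases before the start in RefSeq (GRCm38.p6), 5′ to 3′ on the gene's strand, with capitals at CCAAT, the core of the NF-Y site, and GGGCGG, a core bound by SP factors, on either strand (ATTGG and CCGCCC on the other). In the H2afz window 138 bases also lie in exons of the noncoding gene Gm43403.
H2afz, chr3:137864237-137864486, plus strand: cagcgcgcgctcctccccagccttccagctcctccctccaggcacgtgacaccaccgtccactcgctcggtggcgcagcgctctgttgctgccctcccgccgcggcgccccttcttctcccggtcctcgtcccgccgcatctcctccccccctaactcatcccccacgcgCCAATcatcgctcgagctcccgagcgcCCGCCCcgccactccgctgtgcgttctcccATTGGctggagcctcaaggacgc
H2afv, chr11:6444444-6444693, minus strand: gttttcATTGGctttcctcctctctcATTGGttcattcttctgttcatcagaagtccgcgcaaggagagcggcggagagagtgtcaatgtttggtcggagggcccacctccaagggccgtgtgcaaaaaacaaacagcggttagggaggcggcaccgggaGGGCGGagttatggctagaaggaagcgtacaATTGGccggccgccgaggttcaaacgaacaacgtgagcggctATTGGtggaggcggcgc

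The H2afz window held 2 CCAAT matches and 1 GGGCGG match, and the H2afv window held 4 and 1. A promoter was matched for 9 of the 10 listed genes (H2afx was not matched). Of these 9, 5 held CCAAT, 3 held it at least 3 times (H2afv, H2afj and H3f3b), 6 held GGGCGG and 1 (H3f3b) held TATAAA. Among 32851 windows of the same length, 33.8% held CCAAT, 2.79% held it at least 3 times, 32.7% held GGGCGG and 12.4% held TATAAA. The 3 genes with at least 3 CCAAT matches included 1 that was called higher, 1 called lower and 1 not called. Other windows than that of H2afz also overlapped exons of GENCODE M21, and so are partly or wholly exon sequence. All 250 bases did in H2afy2, H1fx and H1f0, 214 in H3f3b, 107 in H3f3a and 81 in H2afy. The overlap was 4 bases in H2afj and 0 in H2afv.

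H2A.X and H2A.J are close relatives of the replication-dependent H2A. H2afx (ENSMUSG00000049932; chr9:44334694-44336077, plus strand, a single exon) is known to make both a stem-loop and a poly(A) message. The part of each message in the RPKM of H2afx is not known, since the labels do not settle the RNA selection. H2afx fell from 201 and 184 RPKM in the controls to 114 and 115 RPKM after Hnrnpk siRNA. The treated libraries were almost equal and far below both controls, with means of 114 ± 0.718 against 193 ± 12.0 RPKM (SD, n = 2). The treated mean was 0.592 of the control mean, with a log2 change of -0.75 (SE 0.0674, adjusted p = 9.87e-06).

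H2afj (ENSMUSG00000060032; chr6:136808244-136810074, plus strand, 1 exon in the longest coding transcript) encodes H2A.J, a variant reported to build up in senescent cells. Its values were 48.4 and 46.9 RPKM in the controls and 32.0 and 34.8 RPKM after Hnrnpk siRNA. The groups did not overlap, and the change of -0.51 (SE 0.0667, adjusted p = 0.000115) kept its call under all 15 alternatives. Of the H2afx transcript 14.6% and of the H2afj transcript 10.2% matched other genes at 95% identity or above, none of which were in the table. The matches include Gm44335 and Gm44364, annotated on the opposite strand over 141 exonic bases of H2afx and of H2afj. Calls with a log2 change at or below -0.5 were made for 18.0% of all tested genes, and for 4 of the 9 variants (H1fx, H2afy2, H2afx and H2afj). H2afj lay close to this cutoff and on either side of it over the 15 alternatives, from -0.59 to -0.44.

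Of the macroH2A genes, H2afy2 passed the test and H2afy did not, and the difference between them was not tested. H2afy2 (ENSMUSG00000020086; chr10:61738665-61784147, minus strand, 9 exons), for macroH2A2, stood at 18.5 and 16.3 RPKM in the controls and at 9.82 and 9.75 RPKM after Hnrnpk siRNA. It was the least abundant variant in all 4 libraries, and both treated values lay well below the controls. Its log2 change was -0.80 (SE 0.0781, adjusted p = 1.78e-05), and the treated mean was 0.563 of the control mean (17.4 ± 1.58 and 9.79 ± 0.0492 RPKM, SD, n = 2).

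H2afy (ENSMUSG00000015937; chr13:56073619-56136361, minus strand, 9 exons in the longest coding transcript), for macroH2A1, gave 33.1 and 29.6 RPKM in the controls and 28.0 and 28.2 RPKM after Hnrnpk siRNA. The groups did not overlap but lay close together, and the log2 change of -0.15 (SE 0.0707, adjusted p = 0.0819) did not pass the test. It passed at -0.23 (adjusted p = 0.0165) without control library 2, at -0.24 (adjusted p = 0.0119) when each library was scaled to the same total and at -0.18 (adjusted p = 0.0467) with quantile normalization; over 15 alternatives the adjusted p ranged from 0.0119 to 0.421.

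H2afy made up 64.1% and 64.5% of the macroH2A RPKM in the controls and 74.0% and 74.3% after Hnrnpk siRNA. The share was therefore 9.86 percentage points higher in treated cells, with replicates within 1 point of each other. The sum of the 2 genes was 51.6 and 45.9 RPKM in the controls and 37.8 and 37.9 RPKM after Hnrnpk siRNA. Of the H2afy2 transcript, 62.3% was shared with H2afy3, a processed pseudogene, or with Pvt1 or Aifm2. Aifm2, on the opposite strand, overlaps 10.7% of the exonic bases of H2afy2 and averaged 3.67 RPKM in the controls and 3.85 RPKM after Hnrnpk siRNA. Strand use in the counting was not given in the sources used here, and reads from that overlap cannot be told apart.

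**Figure D2:**
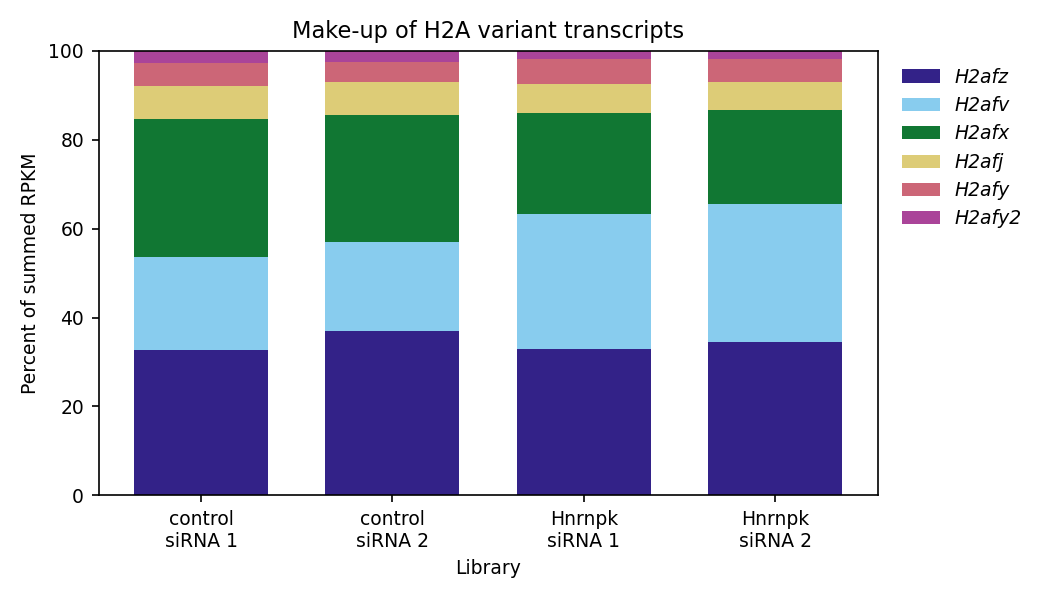
Percent of the summed RPKM of the 6 H2A variant genes in each library, as stacked bars that start at 0 and reach 100. H2afv takes 21.1% and 20.04% in the controls and 30.5% and 31.0% after Hnrnpk siRNA, while H2afx goes from 30.9% and 28.6% to 22.7% and 21.1%.

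Over the 6 H2A variant genes, 4 of them called lower, summed RPKM was 651 and 645 in the controls and 500 and 544 after Hnrnpk siRNA, a difference of -19.5% between the means (648 ± 4.15 and 522 ± 30.7, SD, n = 2). Within that sum, the share of H2afz overlapped between the groups (32.6% and 37.0% against 32.9% and 34.5%). H2afv's share was higher by 10.1 percentage points and that of H2afx changed by -7.86 percentage points, as the plot of the H2A make-up shows.

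Neither H3.3 gene passed the test. H3f3b lies at chr11:116021912-116027962 on the minus strand (ENSMUSG00000016559, 6 exons in the longest coding transcript). It stood at 225 and 237 RPKM in the controls and at 254 and 259 RPKM after Hnrnpk siRNA. The treated libraries lay just above the controls, and the log2 change was 0.15 (SE 0.0657, adjusted p = 0.0677). With a replicate block it passed (0.15, adjusted p = 0.0451), and the adjusted p reached 0.406 when each library was scaled to the same total.

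H3f3a (ENSMUSG00000060743; chr1:180800832-180813943, minus strand, 4 exons in the longest coding transcript) gave 77.9 and 78.9 RPKM in the controls and 74.7 and 79.6 RPKM after Hnrnpk siRNA. The groups overlapped, and the log2 change of -0.023 (SE 0.0631, adjusted p = 0.758) turned to 0.023 without Hnrnpk siRNA library 1. H3f3a and H3f3b together gave 303 and 316 RPKM in the controls and 329 and 338 RPKM in the treated libraries. H3f3b supplied most of it throughout: the share of H3f3a was 25.7% and 24.9% in the controls and 22.7% and 23.5% after Hnrnpk siRNA. Of the H3f3a transcript 32.5% is shared with 19 other genes, among them the pseudogenes H3f3a-ps1 and H3f3a-ps2. Another is Gm17275, a noncoding gene on the opposite strand that overlaps 638 exonic bases (20.4%) of H3f3a itself. Of the 19, Smpd4 was the only one in the table, at means of 26.8 RPKM in the controls and 23.2 RPKM after Hnrnpk siRNA.

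H1fx fell furthest among the variants. The gene (ENSMUSG00000044927; chr6:87980421-87981637, minus strand, a single exon) encodes H1.X, a linker histone that is distant in sequence from the other somatic H1 proteins. It stood at 140 and 112 RPKM in the controls and at 40.3 and 44.7 RPKM after Hnrnpk siRNA. Both treated libraries were far below either control, with means of 126 ± 19.2 and 42.5 ± 3.07 RPKM (SD, n = 2), so that control cells held 2.97 times the treated level. The log2 change was -1.55 (SE 0.0986, adjusted p = 1.36e-06), the 67th lowest of 12486.

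H1fx was the only variant called with a log2 change at or below -1, a class that held 4.52% of all tested genes. Its exons have the highest GC content of the 9 genes, 71.3% beside 43.2% to 62.3% in the others, and with each library's GC trend removed the log2 change was -1.07. Gm5577, an antisense gene, overlaps 17.5% of its exonic bases and averaged 0.652 RPKM in the controls and 0.534 RPKM after Hnrnpk siRNA. By Euclidean distance over the 4 libraries (log2 values, each gene centred on its mean), the tested genes most like H1fx were D130058E05Rik (0.0694), Pip5kl1 (0.0714) and Spock2 (0.0801), which changed by -1.58, -1.50 and -1.56 on the log2 scale. These genes were far lower than H1fx, at control means of 3.21, 2.03 and 4.57 RPKM, where the added 0.5 RPKM shrinks a change. Their treated means were 0.231, 0.193 and 0.265 of the control means, beside 0.337 for H1fx. The genes most like H2afv, the variant that rose, were Clasrp (0.0182), Ufsp1 (0.0191) and Mul1 (0.0202), with log2 changes of 0.28, 0.26 and 0.28. The likeness over 4 libraries is a description and has no test.

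**Figure D3:**
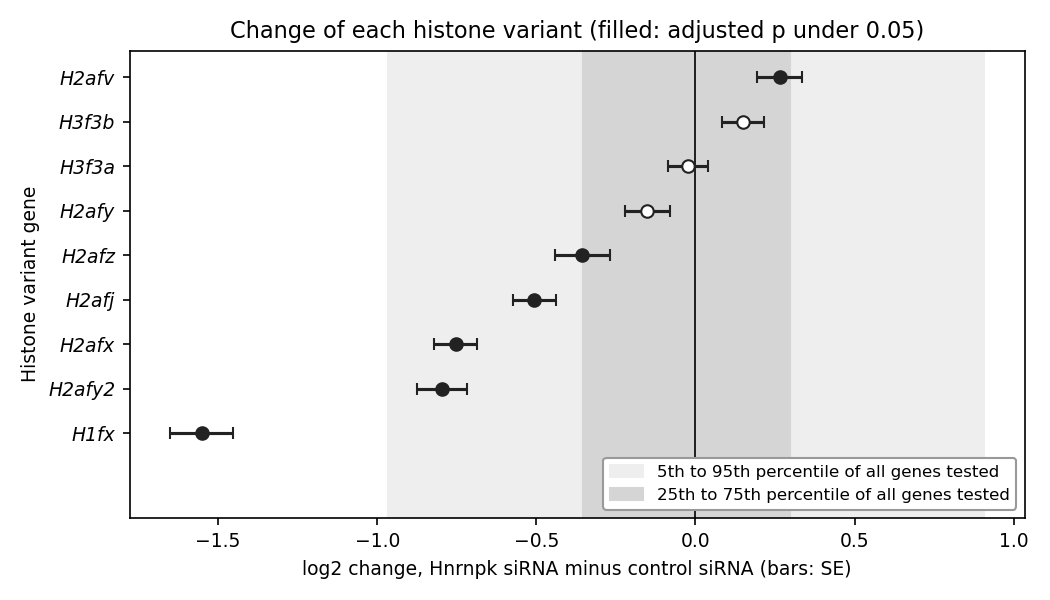
Log2 change (Hnrnpk siRNA minus control siRNA) of each histone variant gene with its SE, over bands that hold the 25th to 75th and the 5th to 95th percentiles of all 12486 tested genes. H1fx lies outside the wider band (-0.97 to 0.91), and H2afv, H3f3b, H3f3a and H2afy lie inside the narrower one (-0.35 to 0.30).

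In order of RPKM over the 4 libraries, H3f3b was the most abundant variant (rank 198 of 12486 tested genes), followed by H2afz (266), H2afx (404) and H2afv (440), then H1fx (885), H3f3a (983), H2afj (2097), H2afy (2819) and H2afy2 (5072). The order differed between the groups. In the controls H3f3b and H2afz overlapped in level, H2afx at 201 and 184 RPKM lay below both and above H2afv, and H1fx at 140 and 112 RPKM overlapped H2afv. After Hnrnpk siRNA H3f3b stood alone at the top, H2afz and H2afv overlapped, H2afx was below both, and H1fx dropped below H3f3a to near H2afj. The 9 variants together gave 1094 and 1074 RPKM in the controls and 870 and 927 RPKM after Hnrnpk siRNA, a difference of -17.1% between the means.

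**Figure D4:**
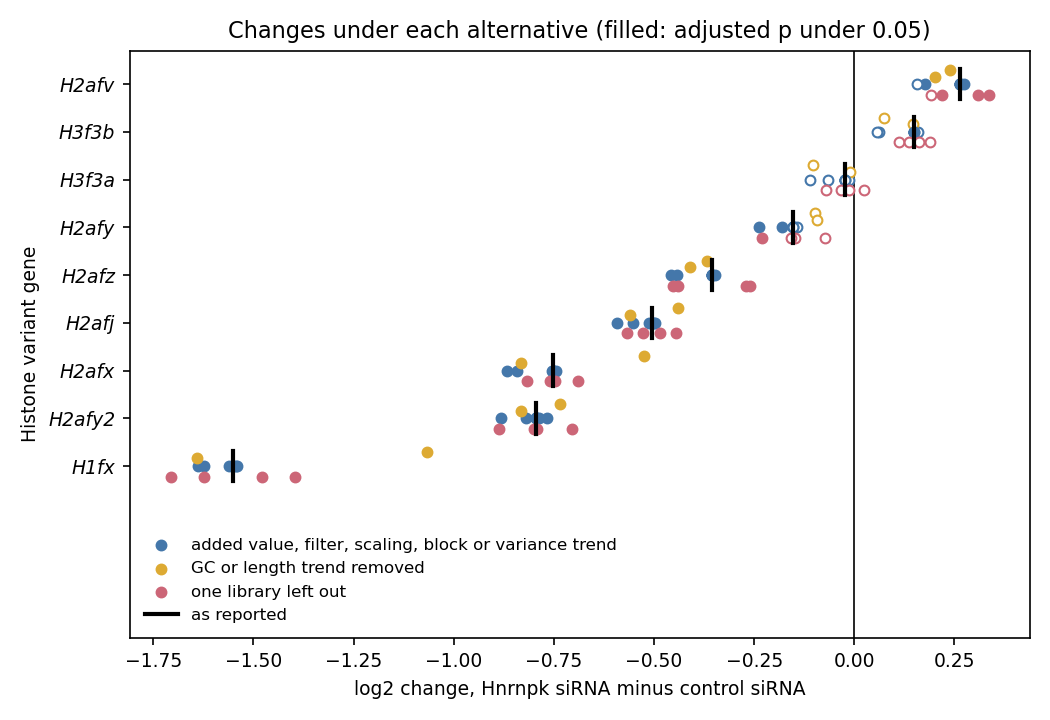
Log2 change of each histone variant gene as reported (black bars) and under 15 alternatives (points, filled where the adjusted p is under 0.05). H1fx, H2afy2, H2afx, H2afj and H2afz keep their call under every alternative, while some points of H2afv, H2afy and H3f3b change theirs and 1 point of H3f3a crosses 0.

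Among genes that exchange H2A.Z, 6 of 19 tested entries were called higher and 6 lower, with a median log2 change of -0.066. Ep400, the motor of the TIP60-p400 complex, fell by 0.38 on the log2 scale (adjusted p = 0.00129). Srcap, the motor of the SRCAP complex, appears under 2 identifiers: 1 fell by 0.35 (adjusted p = 0.00240), while the other changed by -0.075 (adjusted p = 0.329). Actr6, a subunit of the SRCAP complex, rose by 0.35 (adjusted p = 0.000902), and Anp32e, the chaperone that takes H2A.Z off chromatin, fell by 0.28 (adjusted p = 0.00265). The count called higher was 2 without Hnrnpk siRNA library 1 and 3 without library 2, against 6 with both.

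For H3.3 deposition, 2 of 7 genes were called higher and 2 lower (median log2 change 0.033). Hira, the chaperone for H3.3 in active genes, stood at 26.7 and 27.1 RPKM in the controls and at 13.3 and 14.1 RPKM after Hnrnpk siRNA. The groups were far apart, and Hira fell by 0.95 on the log2 scale (adjusted p = 2.24e-06). Cabin1, a subunit of the HIRA complex, also fell, by 0.19 (adjusted p = 0.0243). Ubn1, another subunit, rose by 0.44 (adjusted p = 0.000461), as did Asf1a, which hands histones to HIRA, by 0.52 (adjusted p = 0.00134), while Ubn2, at 0.099 (adjusted p = 0.366), did not pass the test. Daxx (0.033) and Atrx (-0.098), which act together at repeats and telomeres, did not pass the test. With the length trend removed, 3 genes of this list were called higher and 1 lower. The count called lower also moved without control library 1 or without Hnrnpk siRNA library 2.

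Kinases, adaptors and phosphatases that act on H2A.X were called lower in 6 of 11 tested genes, with a median log2 change of -0.17, where 35.0% of all tested genes were called lower and 32.2% higher. In this list 0 were called higher in limma, and 0 were higher at an unadjusted p under 0.05. Atr, a kinase activated by replication stress, dropped from 11.7 and 12.3 RPKM to 4.21 and 3.55 RPKM. Both treated libraries were far below the controls, and the log2 change was -1.52 (adjusted p = 9.38e-07). Eya1, a tyrosine phosphatase of H2A.X, fell by 0.77 (adjusted p = 3.45e-05) and Prkdc, the catalytic subunit of DNA-PK, by 0.68 (adjusted p = 6.43e-05). With the length trend removed, 1 gene of the list was called higher and 5 lower. These counts also moved without control library 2.

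Of 16 chaperones that serve replication or histones in general, 4 were called higher and 4 lower (median log2 change 0.014). Nasp, which guards the pool of free H3 and H4, fell from 120 and 122 RPKM to 71.0 and 67.8 RPKM. Its groups did not overlap, and the log2 change was -0.80 (adjusted p = 4.00e-06). Chaf1b, a subunit of chromatin assembly factor 1, fell by 0.72 (adjusted p = 4.03e-05), and Nap1l1, a chaperone of H2A and H2B, rose by 0.50 (adjusted p = 0.000535). Without Hnrnpk siRNA library 2 the count called higher was 2.

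**Figure D5:**
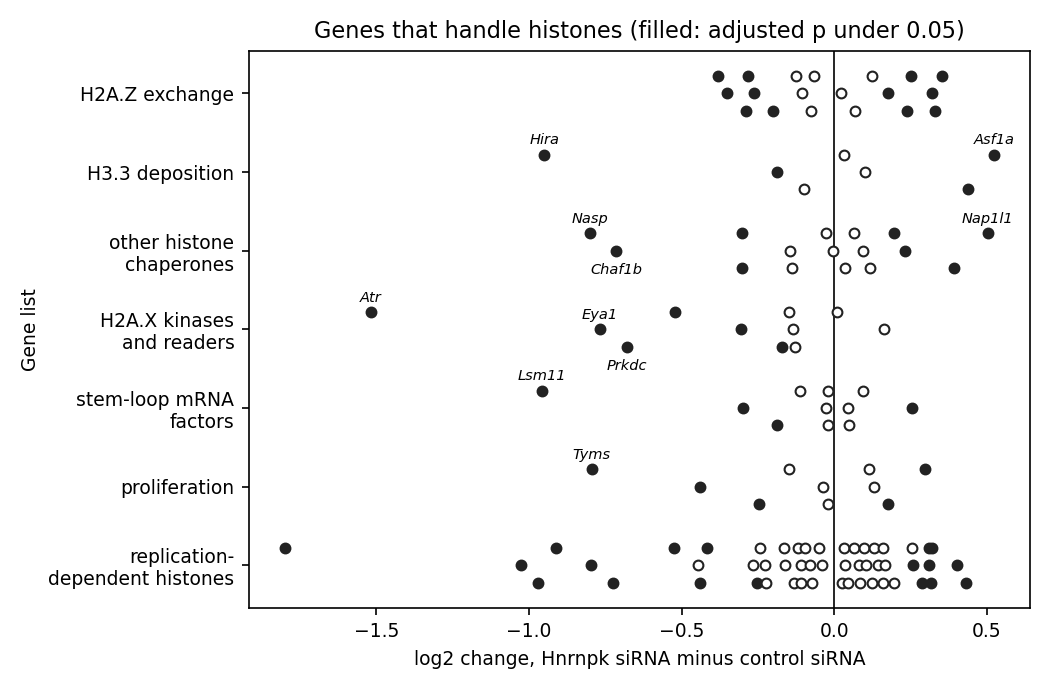
Log2 change (Hnrnpk siRNA minus control siRNA) of each tested gene in 7 lists, 1 row of points per list, filled where the adjusted p is under 0.05 and with some of the largest changes named. Called genes lie on both sides of 0 except among the H2A.X kinases and readers, where all 6 called genes lie below it.

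The factors that process stem-loop histone messages had 1 gene called higher and 3 lower among 11 (median log2 change -0.020). Lsm11, a subunit of the U7 particle that cuts these messages, fell by 0.96 (adjusted p = 7.30e-06), Cpsf3, the nuclease that makes the cut, fell by 0.30 (adjusted p = 0.00178), and Npat, the activator of these genes, rose by 0.25 (adjusted p = 0.00777). The rise of Npat was not called without Hnrnpk siRNA library 1, with equal library totals or with the GC trend removed, and the list then had 0 genes called higher. Of 10 proliferation genes, 2 were called higher and 3 lower (median log2 change -0.030), with Tyms and Mki67 among those that fell (-0.79 and -0.44) and Ccnb1 and Cdk1 those that rose (0.30 and 0.18). The count called higher was 1 without control library 1, control library 2 or Hnrnpk siRNA library 2. The part of proliferation in the changes of the variants was not tested.

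The replication-dependent histone genes were listed at low levels, at most 18.8 RPKM for 1 gene in 1 library (Hist1h4i), and summed over 64 genes to 223 and 190 RPKM in the controls and 191 and 201 RPKM after Hnrnpk siRNA. Their messages have no poly(A) tail, so a poly(A) selection would lower them, and which selection was used is not settled by the labels. Of the 64 genes, 4 were at 0 in every library, and the handling of multi-mapping reads was not given. The reason for the low levels was not tested. Of 51 tested, 8 were called higher and 10 lower, with a median log2 change of -0.040 and a range from -1.80 to 0.43. The lowest was Hist3h2ba, at 3.20 and 2.82 RPKM in the controls and 0.477 and 0.535 RPKM after Hnrnpk siRNA. Its log2 change was -1.80 (adjusted p = 5.96e-07 in limma), and that of Hist1h2bc was -1.03 (adjusted p = 3.79e-06 in limma). The highest was Hist1h3a at 0.43 (adjusted p = 0.00739 in limma). The count called higher was 14 without control library 1 and 2 without either Hnrnpk siRNA library, and the count called lower was 19 without control library 2.

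Set beside them, the variants made up 93.4% and 94.4% of H2A RPKM in the controls and 92.5% and 92.7% after Hnrnpk siRNA. For H3 the shares overlapped (89.6% and 91.8% against 90.1% and 90.2%). For H1, H1fx gave 85.2% and 84.8% of the RPKM of H1fx and 5 Hist1h1 genes in the controls and 72.3% and 75.4% after Hnrnpk siRNA, so its share was lower in both treated libraries. The Hist1h1 genes themselves were mixed. Hist1h1e, for the linker histone H1.4, fell (-0.91, adjusted p = 6.11e-05 in limma), as did Hist1h1b (-0.97, adjusted p = 0.000107) and Hist1h1a (-0.25, adjusted p = 0.0374). Hist1h1c (0.16) and Hist1h1d (0.079) did not pass the test.

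Among 8 further variants in the table, of germ cells or of centromeres, only Cenpa passed the filter on low values. Cenpa, the H3 variant of centromeres, stood at 90.2 and 83.9 RPKM in the controls and at 77.6 and 86.7 RPKM after Hnrnpk siRNA. The groups overlapped, and the log2 change of -0.084 did not pass the test (adjusted p = 0.334). The others, among them the oocyte linker histone H1foo and the testis histones Hist1h1t and Hist1h2ba, stayed under 0.5 RPKM in every library.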

How the data were processed

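RNA-seq was done on 2 control siRNA and 2 Hnrnpk siRNA libraries. The authors deposited 1 table of RPKM per gene with a column per library. BWA, SAMtools and the build mm9 are named in the submitters' processing notes without a role; the counter, annotation, strandedness and handling of multi-mapping reads were not given in the sources used here. Whether replicates were separate cultures was not given either, so p-values measure only the spread between these libraries, which may be technical.

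RPKM values are not counts, so no count model was used and the absolute depth is not known. Genes averaging 0.5 RPKM or more over the libraries were compared as log2(RPKM + 0.5), a scale that understates changes of low genes, with limma 3.58.1 in R 4.3.3 (mean-variance trend, two-sided moderated tests, 7.47 prior degrees of freedom, Benjamini-Hochberg over 12486 genes). The members and the gene lists were chosen with earlier results of these data known. Named genes are all members, Hnrnpk, up to 3 called genes per list by lowest p, genes whose role a sentence needs, and the 3 tested genes nearest to the highest- and lowest-changing member.

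Positions, GC content and coding sequences were looked up by gene identifier in GENCODE M21 (GRCm38), which need not be the annotation the authors used; promoters came from RefSeq. Transcripts were compared by BLAST 2.17.0, keeping matches of 100 or more bases with 95% or higher identity. The 15 alternatives were another added value, filter, scaling, variance model or replicate block, a GC or length trend removed, and each library left out.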

Additional observations from a re-analysis of the deposited data

How the results depend on the processing

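Over 15 alternatives for each of 9 genes, 128 of 135 log2 changes kept their direction and their side of the threshold; 2 calls were lost (H2afv), 4 were gained (H2afy 3, H3f3b 1) and 1 change that had not been called turned its sign, H3f3a, whose values with 1 library left out ran from -0.070 to 0.023, the highest being without Hnrnpk siRNA replicate 1. The number of variants called higher, 1 as reported, was 0 with quantile normalization, 2 with the replicate block, and 0 to 1 with 1 library left out. The number called lower was 5 to 6. The difference in the H2afy share of macroH2A, 9.86 percentage points as reported, was 9.41 with quantile normalization and 11.3 with the length trend removed; that of the H3f3a share of H3.3 was -1.54 with quantile normalization in place of -2.20; the cause was not tested. Removing the GC trend took H1fx to -1.07 and H2afx to -0.52, and both kept their calls.

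Same-numbered libraries correlated at 0.027 in their deviations from the group means over genes, and the labels do not say that numbers mark a shared culture, so the fit reported has no replicate block. Among the variants the replicate block changed 1 call, that of H3f3b; over all tested genes it gave 4162 called higher and 4460 lower in place of 4025 and 4371, and it moved no count of a gene list by over 1.5 times. Over the other gene lists, 34 of 390 counts moved by over 1.5 times. The replication-dependent histones moved most: 8 were called higher as reported, 1 with no filter or with the length trend removed, 4 with equal totals, 13 with quantile normalization and 18 with the GC trend removed; 10 were called lower as reported and 16 with equal totals. Quantile normalization gave 6 proliferation genes lower in place of 3 and 1 general chaperone higher in place of 4, and no filter gave 1. Equal totals moved the median of all tested genes to -0.095 and gave 3 H2A.Z exchange genes higher in place of 6.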
